A study of Mus musculus with 2 samples.

Results

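The cells described here are the neurons that remained in a hippocampal single-cell preparation after dentate granule neurons and Cajal-Retzius cells were set aside by marker counts. A barcode was a member when it held at least 5 unique molecular identifiers (UMIs) of Snap25 and Syt1 together, genes of the synaptic vesicle fusion machinery, and no UMI of C1ql2, a gene of dentate granule neurons. It also had to hold fewer than 3 UMIs of Ndnf, Nhlh2 and Lhx1, fewer than 10 of 5 oligodendrocyte genes, fewer than 4 of 4 precursor genes and fewer than 8 of 6 choroid plexus genes. This rule kept 140 of 10015 barcodes, 46 of 5443 in the wild-type library and 94 of 4572 in the knockout library. The rule was set on the same counts, so Snap25, Syt1 and the excluded genes describe the members and are no finding.

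The study compared the hippocampus of GlaKO mice, a model of Fabry disease that lacks alpha-galactosidase A, with that of wild-type (wt) littermates, all 57 weeks old. Mice were anaesthetised and perfused with saline, and the hippocampi were dissociated with enzymes, cleared of debris on a density gradient and sorted with the dye 7-AAD. Each genotype had 1 library of the 10x Genomics 3′ type. The labels do not give the number or sex of the animals behind a library, nor which part of Gla is altered.

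Pyramidal neurons are the glutamatergic projection neurons of the hippocampal fields and the subiculum. They load vesicles with the glutamate transporters Slc17a7 or Slc17a6, and many keep the transcription factor Neurod6 in adult life. Inhibitory neurons make GABA with Gad1 and Gad2 and are divided into subtypes by neuropeptides and adhesion or receptor genes such as Vip, Cnr1 and Reln. Tshz2 encodes a zinc-finger transcription factor known from subicular and near-projecting cortical neurons.

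Member libraries were of similar depth per cell. The median was 5372 UMIs and 2830 genes per member in wt, and 5600 UMIs and 2935 genes in GlaKO. The median share of mitochondrial UMIs was 2.26% and 2.36%. In all, members held 247397 UMIs in wt and 615377 in GlaKO. Of the barcodes, 6 occurred in both libraries, and none of these was a member. With 1 library per genotype there is no replicate error, so no test between genotypes was made. Levels, given as counts per 1000000 UMIs (CPM), carry exact Poisson 95% intervals and shares carry exact Clopper-Pearson 95% intervals, given in parentheses, and these cover counting error only. Differences between animals, dissociations and libraries cannot be told apart from differences between genotypes.

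Members made up 0.845% of wt barcodes (0.619 to 1.13) and 2.06% of GlaKO barcodes (1.66 to 2.51). The intervals did not overlap. These are shares of cells that survived dissociation and sorting. Their Snap25 and Syt1 UMIs together ranged from 5 to 84 in wt, with a median of 21, and from 5 to 143 in GlaKO, with a median of 27. At the threshold of 5 stood 2 cells in each library, and 2 wt cells and no GlaKO cell met every other criterion with 1 UMI fewer. The summed level of 12 general neuronal genes was 21969 CPM in wt members and 23966 CPM in GlaKO members, against 628 and 972 CPM in all other barcodes.

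The name "neurons other than granule cells" held only in part. Members were sorted into classes by UMIs of 2 short lists, Slc17a7, Slc17a6, Neurod6, Neurod2 and Tbr1 for glutamatergic cells and Gad1, Gad2 and Erbb4 for inhibitory cells, with at least 2 UMIs required. Glutamatergic cells with at least 3 UMIs of Prox1, Dsp, C1ql3 and Calb1, fewer than 2 of Tshz2 and none of Neurod6 or Mpped1 were called granule-like. Such cells numbered 11 of 46 in wt and 10 of 94 in GlaKO, although they held no C1ql2 UMI. The complement-related secreted protein gene C1ql3 stood at 4450 CPM (3831 to 5139) in the wt and 2876 CPM (2464 to 3338) in the GlaKO granule-like cells. It was at 0 in 1 of the 10 GlaKO cells and at 1 UMI in another, which held 5 Meis2 and 3 Id2 UMIs. The class of these cells is thus less sure. Prox1, the transcription factor of granule cell identity, stood at 385 CPM (220 to 625) in the wt and 366 CPM (229 to 554) in the GlaKO granule-like cells. It was at 0 in the wt pyramidal-like cells (at most 19.5) and at 3.89 CPM (0.471 to 14.0) in the GlaKO ones. Neurod6, Slc17a6 and Tshz2 were at 0 in the granule-like cells of both libraries. The classes were set after the values were seen, so their defining genes are a description.

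Pyramidal-like cells were the main class in both libraries. They numbered 31 of 46 members in wt, 67.4% (52.0 to 80.5), and 75 of 94 in GlaKO, 79.8% (70.2 to 87.4), and these intervals overlapped. As a share of all barcodes they were 0.570% (0.387 to 0.807) in wt and 1.64% (1.29 to 2.05) in GlaKO, and these did not overlap. When every cell was thinned to 2000 UMIs, which left out 4 members of each library, the share was 45.2% in wt and 66.7% in GlaKO. When members with 3 or more UMIs of Prox1, Dsp and C1ql3 were left out, it was 84.0% in wt and 83.3% in GlaKO. The order of the libraries in this share thus did not hold under that limit. The limit also left out pyramidal-like cells with 3 or more of these UMIs, not granule-like cells alone. C1ql3 was found in 16 of 31 wt and 53 of 75 GlaKO pyramidal-like cells.

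Inhibitory-like cells were few. There were 3 in wt, 6.52% of members (1.37 to 17.9), and 7 in GlaKO, 7.45% (3.05 to 14.7). Set against pyramidal-like and inhibitory-like cells together, they were 8.82% (1.86 to 23.7) in wt and 8.54% (3.50 to 16.8) in GlaKO. The ratio of inhibitory to pyramidal-like cells was thus close in both libraries, with intervals too wide to show a moderate difference. Unsupervised clustering of the members placed 9 of these 10 cells in 1 cluster of 10. Granule-like cells were 23.9% of wt members (12.6 to 38.8) and 10.6% of GlaKO members (5.22 to 18.7), and they were 0.202% of wt barcodes and 0.219% of GlaKO barcodes. Only 1 wt and 2 GlaKO members were left without a class.

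**Figure D1:**
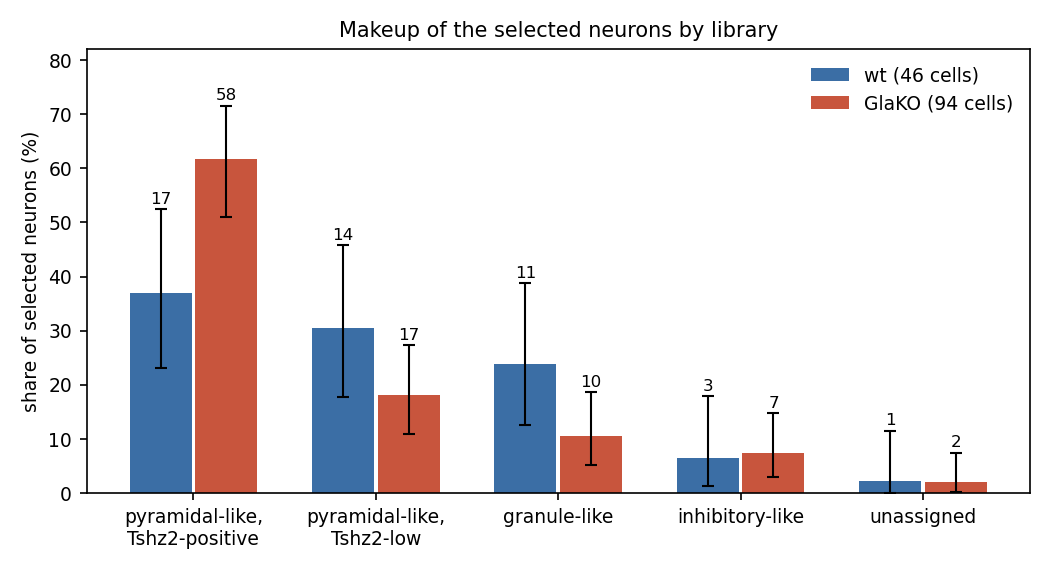
Share of the members in each class (percent of 46 wt and 94 GlaKO members, y axis) with Clopper-Pearson 95% intervals as error bars and cell numbers above the bars. Tshz2-positive pyramidal-like cells are the class with the largest gap, 37.0% in wt and 61.7% in GlaKO, while inhibitory-like cells stand at 6.52% and 7.45%.

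Within the pyramidal-like class, Tshz2 split the cells. Cells with at least 2 Tshz2 UMIs numbered 17 in wt, 37.0% of members (23.2 to 52.5), and 58 in GlaKO, 61.7% (51.1 to 71.5). Of the pyramidal-like cells alone they were 54.8% (36.0 to 72.7) in wt and 77.3% (66.2 to 86.2) in GlaKO, with overlapping intervals. Per barcode they were 0.312% (0.182 to 0.50) and 1.27% (0.965 to 1.64). Cells with fewer Tshz2 UMIs, called Tshz2-low here, numbered 14 in wt and 17 in GlaKO, or 0.257% and 0.372% of barcodes. The larger number of GlaKO members thus lay mostly in Tshz2-positive cells. Cells stood next to the limit on both sides, more of them in GlaKO, so the split is not a clean one. Tshz2 was at 0 in 12 wt and 11 GlaKO pyramidal-like cells, at exactly 1 UMI in 2 and 6, at exactly 2 in 1 and 5, and at 5 or more in 12 and 46.

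Tshz2 lies on chromosome 2, from 169633013 to 170071816 on the plus strand of GRCm38. Among Tshz2-positive cells it ranged from 2 to 12 UMIs in wt, with a median of 8, and from 2 to 32 in GlaKO, also with a median of 8. The levels were 1039 CPM (860 to 1243) and 1170 CPM (1072 to 1275). The level per Tshz2-positive cell therefore overlapped between libraries, while over all pyramidal-like cells Tshz2 was 638 CPM (530 to 763) in wt and 1022 CPM (936 to 1113) in GlaKO. At least 2 Tshz2 UMIs were found in 0.737% of wt and 1.32% of GlaKO barcodes without any Snap25 or Syt1 UMI, at median depths of 5106 and 6102 UMIs, against 6057 and 6186 in the Tshz2-positive cells.

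**Figure D2:**
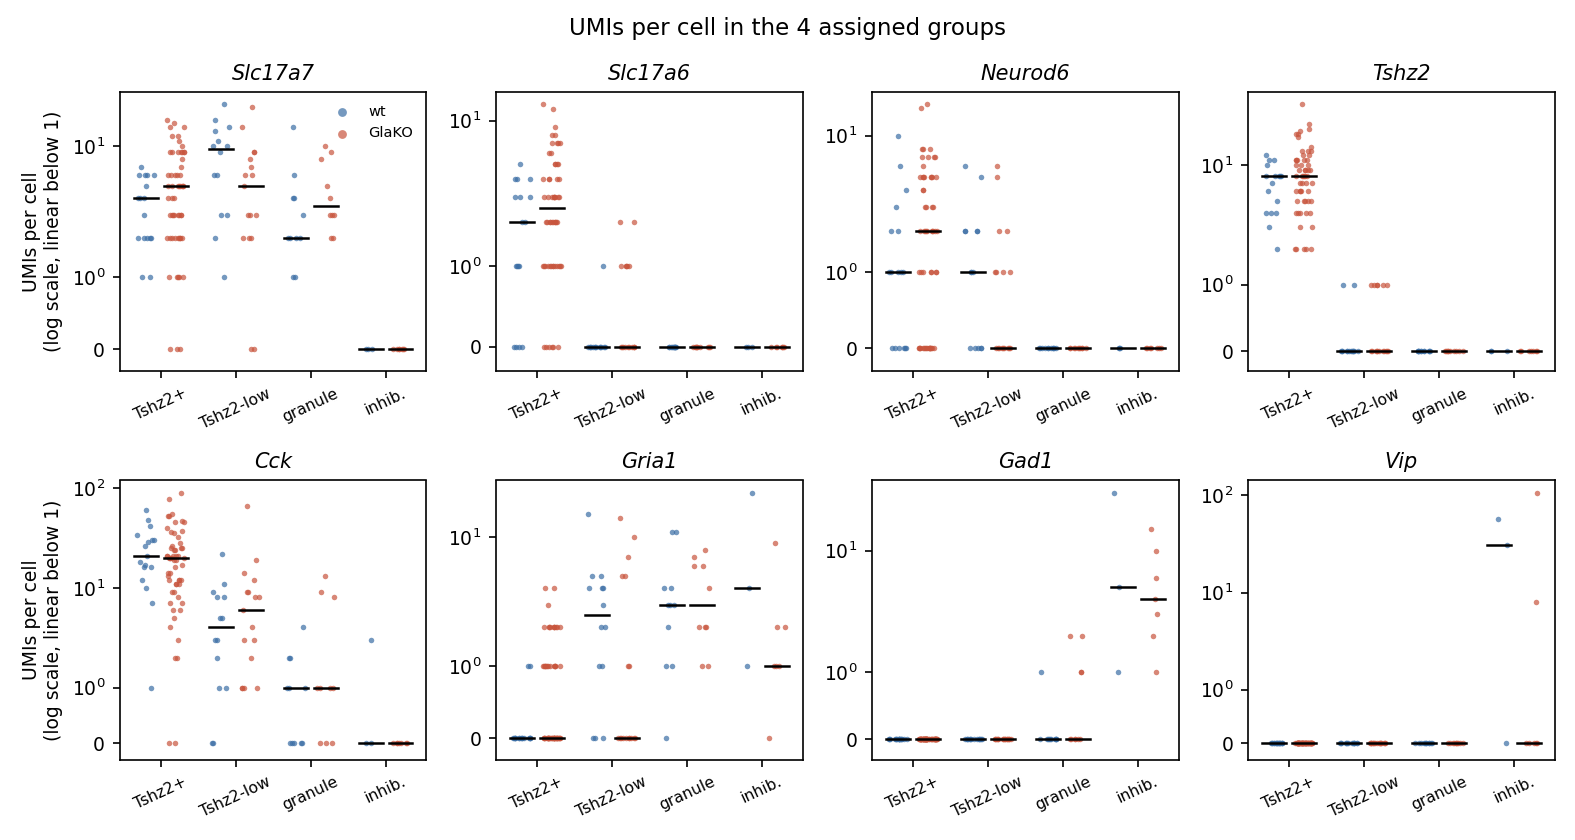
UMIs per cell of 8 genes (y axis, linear near 0 and logarithmic above) in the pyramidal-like Tshz2-positive, pyramidal-like Tshz2-low, granule-like and inhibitory-like cells of wt and GlaKO, 1 point per cell, with black bars at the medians. Gad1 and Vip are at 0 in every pyramidal-like cell, and Slc17a7 is at 0 in every inhibitory-like cell.

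Both libraries had the same arrangement of glutamate transporter genes. Slc17a7, the main vesicular glutamate transporter of the hippocampal fields (chromosome 7, 45163949 to 45176142, plus strand), was found in all 31 wt pyramidal-like cells, at 1 to 21 UMIs with a median of 5. In GlaKO it ranged from 0 to 20 UMIs, also with a median of 5. Its level in Tshz2-low cells was 1666 CPM (1387 to 1985) in wt and 1407 CPM (1143 to 1713) in GlaKO, above that of Tshz2-positive cells, at 550 CPM (423 to 704) and 700 CPM (624 to 782). Slc17a6, the transporter gene more typical of subcortical and subicular neurons (chromosome 7, 51622006 to 51671119, plus strand), went the other way. It reached 297 CPM (206 to 415) and 428 CPM (369 to 493) in Tshz2-positive cells, and 13.3 CPM (0.337 to 74.3) and 128 CPM (58.5 to 243) in Tshz2-low cells. At least 2 Slc17a6 UMIs were present in 9 of 17 wt and 39 of 58 GlaKO Tshz2-positive cells, and in no barcode without Snap25 and Syt1 UMIs in either library.

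Neurod6 (chromosome 6, 55677822 to 55681263, minus strand) did not separate the subgroups as they were cut here. It stood at 279 CPM (191 to 394) in wt and 401 CPM (344 to 464) in GlaKO Tshz2-positive cells, and at 293 CPM (184 to 444) and 270 CPM (163 to 422) in Tshz2-low cells. The granule-like rule took cells without Neurod6 from the Tshz2-low side alone, so the Tshz2-low level depends in part on that rule. Cck, a neuropeptide gene (chromosome 9, 121489824 to 121495694, minus strand), was high in pyramidal-like cells of both libraries, at 2611 CPM (2386 to 2851) and 2826 CPM (2683 to 2976). It ranged from 1 to 60 UMIs in wt Tshz2-positive cells, with a median of 21, and from 0 to 89 in GlaKO, with a median of 20. Among Tshz2-low cells it was 1040 CPM (822 to 1298) in wt and 2373 CPM (2027 to 2762) in GlaKO, without overlap of the intervals. There 1 wt cell gave 22 of the 78 Cck UMIs and 1 GlaKO cell 66 of the 167. Among the 10 inhibitory-like cells only 1 held Cck, with 3 UMIs.

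Other genes followed the Tshz2 split in both libraries, as a description of groups cut from the same cells. With libraries summed, the 10 highest of the Tshz2-positive over the Tshz2-low cells held Sgcz (a log2 ratio of 2.96), Cxcl14 (2.76), Slc17a6 (2.54), Aldoc (2.06), Nefm (1.91) and Tshz3 (1.81). Cxcl14, a chemokine gene, stood at 384 CPM (279 to 516) in wt and 486 CPM (423 to 555) in GlaKO Tshz2-positive cells, while the wt Tshz2-low cells held no UMI of it (at most 49.2) and the GlaKO ones 142 CPM (68.1 to 261).

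The lowest were Zbtb20 (-4.01), Cpne7 (-3.0), Crym (-3.0), Gria1 (-2.90), Nfib (-2.86) and Cpne6 (-2.34). Zbtb20, a zinc-finger repressor known from hippocampal field identity, was 69.8 CPM (30.1 to 138) and 38.3 CPM (22.3 to 61.2) in Tshz2-positive cells. It was 547 CPM (392 to 741) and 909 CPM (700 to 1161) in Tshz2-low cells, where 36 of the 64 GlaKO UMIs came from 1 cell. Gria1, an AMPA receptor subunit, was 17.5 CPM (2.11 to 63.1) in wt and 99.0 CPM (71.9 to 133) in GlaKO Tshz2-positive cells, and 613 CPM (449 to 818) and 611 CPM (442 to 823) in Tshz2-low cells. The summed Tshz2-low levels of Gria1 were thus close. Tshz2-low cells with at least 2 Gria1 UMIs numbered 9 of 14 in wt (64.3%, 35.1 to 87.2) and 5 of 17 in GlaKO (29.4%, 10.3 to 56.0). These intervals overlapped. In Tshz2-low cells, 1 wt cell gave 15 of 46 Gria1 UMIs and 1 GlaKO cell 14 of 43. At least 2 Gria1 UMIs were found in 0 of 17 wt (up to 19.5%) and 13 of 58 GlaKO Tshz2-positive cells (22.4%, 12.5 to 35.3).

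Crym encodes the thyroid hormone binding protein mu-crystallin and Cpne6 a calcium-dependent membrane binding protein. Crym was 507 CPM (358 to 695) in wt and 526 CPM (370 to 725) in GlaKO Tshz2-low cells, and Cpne6 was 547 CPM (392 to 741) and 426 CPM (288 to 609). Of the 37 Crym UMIs in GlaKO Tshz2-low cells, 28 (75.7%) came from 1 cell, and without it the level was 163 CPM (74.5 to 309).

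**Figure D3:**
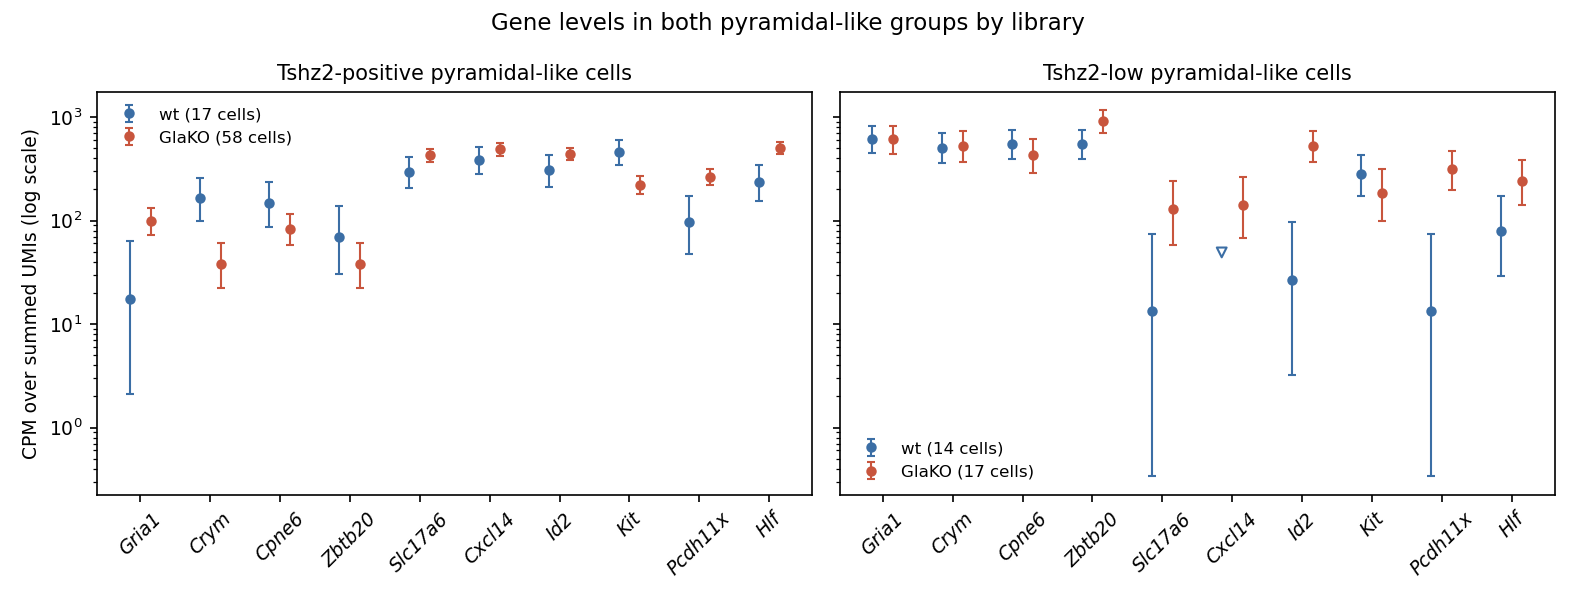
CPM (logarithmic axis) of 10 genes in Tshz2-positive and Tshz2-low pyramidal-like cells of wt and GlaKO, with exact Poisson 95% intervals; an open triangle is the upper limit of a level at 0. Gria1, Crym, Cpne6 and Zbtb20 are higher in the Tshz2-low cells of both libraries, Slc17a6 and Cxcl14 in the Tshz2-positive cells, and Id2 in GlaKO Tshz2-low cells is at 526 CPM against 26.7 CPM in wt; 1 cell gave 28 of the 37 Crym and 36 of the 64 Zbtb20 UMIs of the GlaKO Tshz2-low cells.

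Markers of single hippocampal fields were sparse. Of 6 genes listed for the subiculum and near-projecting neurons, 4 were among the genes of both libraries. Their sum was 724 CPM in wt members and 1253 CPM in GlaKO members, mostly Tshz2 and Slc17a6, against 133 and 239 CPM in other barcodes. Fn1, a matrix protein gene of subicular neurons, had 24.3 CPM (8.90 to 52.8) and 4.88 CPM (1.01 to 14.2), and the transcription factor gene Etv1 68.7 CPM (40.0 to 110) and 69.9 CPM (50.6 to 94.1). The CA1 list reached 631 and 465 CPM, against 96.9 and 145 CPM in other barcodes. The CA3 list reached 194 and 177 CPM, against 24.7 and 40.2 CPM in other barcodes. The CA2 list, at 606 and 236 CPM, was below its level in other barcodes, 744 and 440 CPM. The mossy cell list stood at 80.8 and 79.6 CPM, and 4 of its 6 genes were not among the genes of either library. No member was therefore given the name of a field.

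Id2 and Kit divided the Tshz2-positive cells further, and Meis2 did so in GlaKO alone. Id2 is an inhibitor of basic helix-loop-helix transcription factors (chromosome 12, 25093799 to 25097140, minus strand), Kit a receptor tyrosine kinase (chromosome 5, 75574916 to 75656722, plus strand) and Meis2 a homeobox gene (chromosome 2, 115863064 to 116065839, minus strand). At least 2 Id2 UMIs were present in 4 of 17 wt Tshz2-positive cells, 23.5% (6.81 to 49.9), and in 32 of 58 GlaKO ones, 55.2% (41.5 to 68.3). At least 2 Kit UMIs were present in 11 of 17, 64.7% (38.3 to 85.8), and in 17 of 58, 29.3% (18.1 to 42.7). For Meis2 the shares were 94.1% (71.3 to 99.9) and 41.4% (28.6 to 55.1). The Meis2 intervals did not overlap, and those of Id2 and Kit overlapped slightly.

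Few cells held both Id2 and Kit. Cells with Id2 and not Kit numbered 2 of 17 in wt, 11.8% (1.46 to 36.4), and 30 of 58 in GlaKO, 51.7% (38.2 to 65.0). Cells with Kit and not Id2 numbered 9 in wt, 52.9% (27.8 to 77.0), and 15 in GlaKO, 25.9% (15.3 to 39.0). The intervals of the Id2 cells did not overlap, and those of the Kit cells did. In each library 2 cells held both, and 4 wt and 11 GlaKO cells held neither. The cells with both were 2 of the 4 wt and 2 of the 32 GlaKO cells with Id2. The Id2 shares depend on depth: among cells thinned to 2000 UMIs, 0 of 7 wt and 13 of 38 GlaKO Tshz2-positive cells kept at least 2 Id2 UMIs. Among barcodes without Snap25 and Syt1 UMIs, at median depths of 5106 and 6102, 16.8% in wt and 18.6% in GlaKO held at least 2 Id2 UMIs. For Kit this share was 0.889% and 2.26%, and for Meis2 2.10% and 4.61%. The wt share of Id2 in Tshz2-positive cells is thus not above this level beyond its interval.

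**Figure D4:**
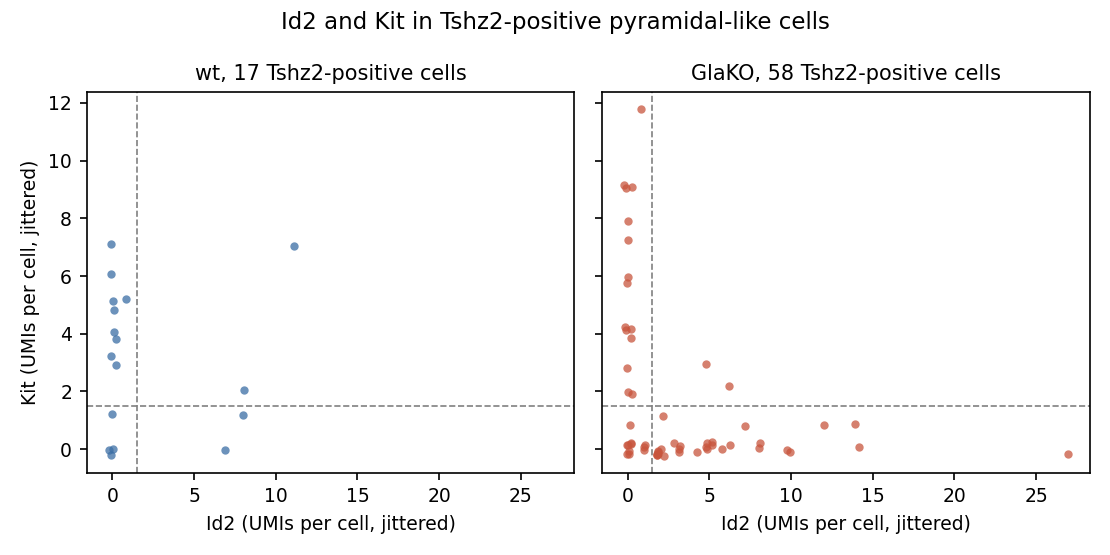
UMIs of Id2 (x axis) and Kit (y axis) in each Tshz2-positive pyramidal-like cell, 17 in wt and 58 in GlaKO, with points moved slightly at random and dashed lines at the minimum of 2 UMIs. In wt 9 cells hold Kit without Id2 and 2 hold Id2 without Kit, while in GlaKO these numbers are 15 and 30.

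In the GlaKO library, where both kinds were numerous enough to sum, the 30 Id2 cells and the 15 Kit cells differed in other genes. Cux2, a homeobox gene of upper cortical layers, stood at 28.3 CPM (10.4 to 61.7) in the Id2 cells and 155 CPM (100 to 229) in the Kit cells. Lamp5, a lysosome-associated membrane protein gene not among the genes listed for wt, stood at 250 CPM (188 to 328) and 18.6 CPM (3.84 to 54.4). Meis2 was 250 CPM (188 to 328) in the Id2 cells and 441 CPM (344 to 556) in the Kit cells, and the POU domain gene Pou3f1 222 CPM (163 to 295) and 397 CPM (306 to 507). Slc17a6 was 340 CPM (266 to 428) and 478 CPM (377 to 597), with overlapping intervals. The Kit cells were deeper, with a median of 10098 UMIs against 5802. These cells were grouped after their values were seen, so the contrasts are a description.

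Among Tshz2-low cells, Id2 also differed between libraries. It was found in 2 of 14 wt cells with 1 UMI each, 26.7 CPM (3.23 to 96.3), and in 11 of 17 GlaKO cells with 0 to 7 UMIs, 526 CPM (370 to 725). These intervals did not overlap. The GlaKO Tshz2-low cells were shallower, with a median of 3020 UMIs against 4918, while the Tshz2 limit was a fixed number of UMIs. Exactly 1 Tshz2 UMI was held by 2 wt and 6 GlaKO cells. Slc17a6 in the Tshz2-low cells was 13.3 CPM in wt, on 1 UMI, and 128 CPM in GlaKO, on 9. The part of depth and cell mixture in the Id2 difference was not tested. In all other barcodes Id2 stood at 127 and 141 CPM.

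The inhibitory-like cells were described one by one, since they were 3 and 7. Gad1, the GABA-synthesising glutamate decarboxylase gene on chromosome 2 (70553072 to 70602014, plus strand), had 1, 5 and 30 UMIs in the 3 wt cells, 2441 CPM (1709.5 to 3379). It had between 1 and 15 UMIs, with a median of 4, in the GlaKO cells, 1390.0 CPM (997 to 1886). These intervals overlapped. No pyramidal-like cell of either library held a Gad1 UMI, against 7.54 and 12.4 CPM in other barcodes. Erbb4, the neuregulin receptor of interneurons, was present in all 3 wt cells and in 6 of 7 GlaKO cells. Slc17a7, Slc17a6, Neurod6 and Tshz2 were at 0 in all of them.

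Vip cells were seen in both libraries. Vip, encoding vasoactive intestinal peptide (chromosome 10, 5639218 to 5647617, plus strand), was found in 2 wt cells, with 57 and 31 UMIs, and in 2 GlaKO cells, with 106 and 8 UMIs. All 4 also held the cannabinoid receptor gene Cnr1, at 10 and 23 UMIs in wt and 7 and 11 in GlaKO. The second wt cell held 16 UMIs of the enkephalin precursor Penk and 3 of the calcium-binding protein Calb2, and the first GlaKO cell held 8 of Penk and 6 of Calb2.

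A different pattern recurred in 1 cell of each library. The third wt cell held 30 Gad1, 13 Id2 and 6 Reln UMIs and no Vip, and 1 GlaKO cell held 15 Gad1, 17 Gad2, 16 Id2 and 3 Reln UMIs. Of the remaining 4 GlaKO cells, 1 held 7 Kit UMIs, and 1 held 12 UMIs of the tachykinin precursor Tac1 with 11 of Penk and 9 of Meis2. The GlaKO cell with the fewest UMIs, 1611, held 2 Gad1 UMIs and none of Erbb4. Gad2 was listed for GlaKO alone. Sst, Pvalb and Lhx6, genes of other inhibitory classes, and the GABA transporter gene Slc32a1 were not among the genes listed for either library and are not analysed here, so subtypes defined by the first 3 could not be looked for.

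As a description with libraries summed, the genes highest in pyramidal-like over inhibitory-like cells began with Nrgn, a postsynaptic calmodulin binding protein, at a log2 ratio of 6.06, followed by Cck (5.35), Arpp21 (4.78), Cnksr2 (4.29) and Ryr2 (3.91). Those highest in inhibitory-like cells, with ratios of the opposite sign, began with Vip and went on with Scg2 (-3.10), Synpr (-2.86), Vstm2a (-2.64), Dner (-2.58), Tmem130 (-2.42) and Nrxn3 (-2.37). Gria1 was in the same set (-2.34).

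Gla itself gave few UMIs. Wt members held 1 UMI, 4.04 CPM (0.102 to 22.5), and GlaKO members 10 UMIs in 10 cells, 16.3 CPM (7.79 to 29.9). In all other barcodes the order was the reverse, at 12.5 CPM (11.3 to 13.8) in wt and 7.24 CPM (6.29 to 8.28) in GlaKO. A 3′ tag outside the altered part of a gene is no check of the genotype, so the labels were taken as given.

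Levels were then compared between libraries over genes listed in both with at least 100 UMIs in the cells compared. Past 1.5-fold among all members were 140 of 2095 genes higher in GlaKO (6.68%) and 83 lower (3.96%), with a median log2 ratio of 0.01. The pyramidal-like class, the only one with at least 30 cells in each library, gave 127 of 1663 higher (7.64%) and 75 lower (4.51%), with a median of 0.04. A minimum of 300 UMIs left 16 higher and 7 lower of 336 genes in this class, and a minimum of 50 gave 369 and 245 of 3487. After thinning to 2000 UMIs, 22 of 264 genes were higher (8.33%) and 13 lower (4.92%). These shares are over far fewer genes than the 1663 above, so the 2 sets of shares are not alike. Leaving out, for each gene, the cell with the most UMIs of that gene in each library gave 167 higher and 34 lower of 1462 genes in the pyramidal-like class, and 172 higher and 45 lower of 1892 among members. This removes 1 of 31 wt cells but 1 of 75 GlaKO cells, and it moved the median ratio of the class from 0.04 to 0.13. The libraries also filled the unsupervised clusters of this class unevenly. Clusters 0 and 1 held 12 and 8 wt members against 12 and 7 GlaKO members, while clusters 4, 5 and 7 held 4, 1 and 1 wt members against 18, 8 and 14 GlaKO members. Clusters 2 and 8 held 4 and 2 wt members against 11 and 8 GlaKO members. Clusters were made without correction between libraries, so a different cell mixture cannot be told apart from a library-wide shift of levels. The part of either in each ratio was not tested beyond the Tshz2 split.

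In the pyramidal-like class, the genes with the highest ratios among those spread over at least 10 cells included genes of neuronal membranes and transcription. The protocadherin gene Pcdh11x was 63.3 CPM (32.7 to 111) in wt and 272 CPM (229 to 321) in GlaKO, a log2 ratio of 2.10. It was in 10 of 31 and 49 of 75 cells. The clock-output transcription factor gene Hlf was 174 CPM (120 to 244) and 466 CPM (409 to 529), a log2 ratio of 1.42. Sparcl1, a secreted matrix protein gene, was 749 CPM (631 to 883) and 1776 CPM (1662 to 1894), a log2 ratio of 1.25. In other barcodes the ratios of these 3 genes were 0.59, 0.50 and 0.51.

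For Pcdh11x and Hlf the direction was the same in Tshz2-positive cells, with log2 ratios of 1.47 and 1.09, and in Tshz2-low cells, with 4.55 and 1.59. The wt Tshz2-low value of Pcdh11x rested on 1 UMI. Sparcl1 was 1047 and 1931 CPM in Tshz2-positive cells and 293 and 796 CPM in Tshz2-low cells.

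Other genes with high ratios were Phyhipl (1.85), Nme7 (1.53), the protocadherin gene Pcdh7 (1.47), Brinp3 (1.30), the antiproliferative gene Btg1 (1.23) and Id2 (1.21). Nme7 was higher in GlaKO in Tshz2-positive cells, at 78.6 and 306 CPM. Its Tshz2-low values, 120 and 71.1 CPM, rested on 9 wt and 5 GlaKO UMIs, too few to set a direction. For Brinp3, 52.4% of the wt UMIs came from 1 cell. Its ratio was 2.19 without its top cell in each library, and 0.92 in the lowest alternative. Brinp3 was close between libraries in Tshz2-low cells, at 227 CPM in wt and 213 CPM in GlaKO. In Tshz2-positive cells it was 34.9 CPM in wt, on 4 UMIs, and 281 CPM in GlaKO. Btg1 had a ratio of 1.53 in other barcodes, above its value here. Slc17a6, fixed as a marker, was 185 CPM (129 to 257) and 387 CPM (335 to 444), a log2 ratio of 1.07.

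**Figure D5:**
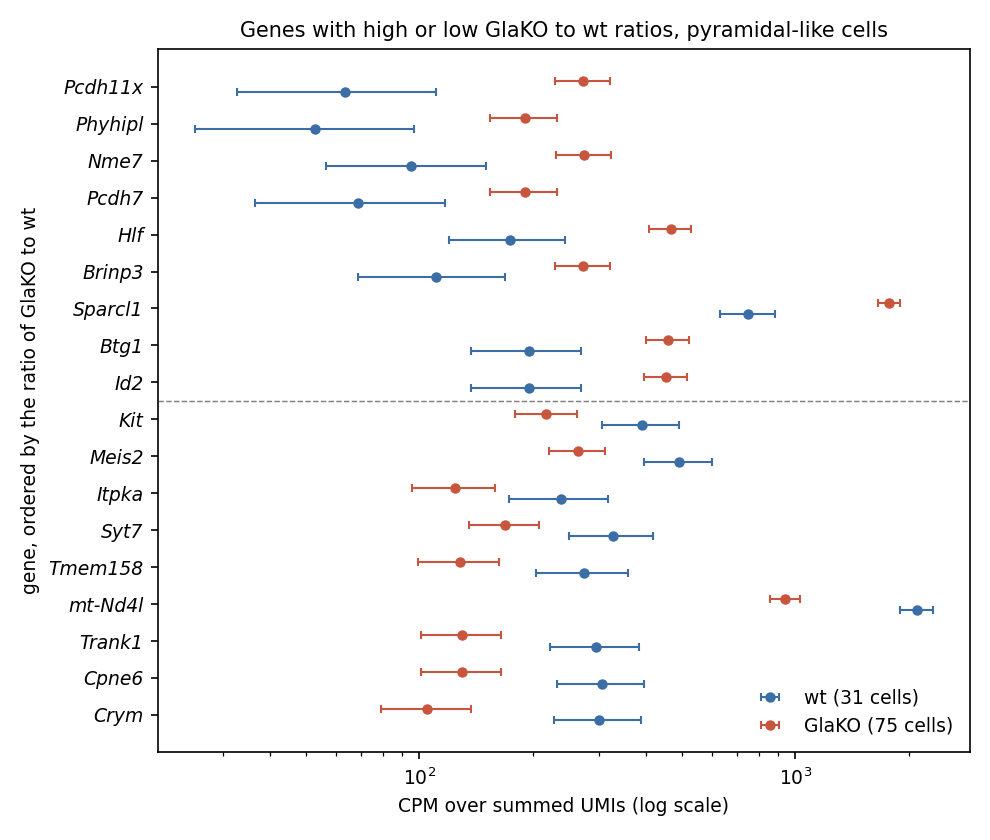
CPM (logarithmic axis) of 18 genes named for the highest and lowest GlaKO over wt ratios in pyramidal-like cells, 31 in wt and 75 in GlaKO, with exact Poisson 95% intervals. For all 18 genes, which were picked for their ratios, the wt and GlaKO intervals are apart, from Pcdh11x (63.3 against 272 CPM) to Crym (301 against 105 CPM).

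The lowest ratio was that of Crym. It had 301 CPM (228 to 390) in wt, in 21 of 31 cells, and 105 CPM (78.8 to 137) in GlaKO, in 14 of 75 cells, a log2 ratio of -1.52. Cpne6 followed with 306 CPM (232 to 395) and 130 CPM (101 to 165), a ratio of -1.23. Both were higher in Tshz2-low than in Tshz2-positive cells. With these subgroups given equal weight, the ratio of Cpne6 was -0.45. That of Crym was -0.25, a value that rested on 1 GlaKO Tshz2-low cell with 28 UMIs, and -1.74 without that cell. Within Tshz2-positive cells alone, Crym was 166 CPM (99.9 to 259) in wt and 38.3 CPM (22.3 to 61.2) in GlaKO, without overlap.

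Meis2 and Kit kept lower levels in GlaKO under equal weights. Over the class Meis2 was 491 CPM (396 to 601) and 264 CPM (222 to 313), a log2 ratio of -0.89, and -1.32 with equal weights. In Tshz2-positive cells it was 672 CPM (530 to 840) and 297 CPM (249 to 352), and it was in 16 of 17 wt cells and 36 of 58 GlaKO cells. Kit was 390 CPM (306 to 490) and 218 CPM (179 to 262) over the class, a ratio of -0.84, and -0.87 with equal weights. Pou3f1, listed with the CA1 markers, was 515 CPM (392 to 664) and 270 CPM (224 to 323) in Tshz2-positive cells. In other barcodes Meis2 and Kit had ratios of 0.85 and 0.80, opposite in sign to those of the pyramidal-like cells.

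Other genes with low ratios were Trank1 (-1.18), mt-Nd4l (-1.17), Tmem158 (-1.10), the vesicle calcium sensor Syt7 (-0.95) and the inositol trisphosphate kinase Itpka (-0.93). With Tshz2-positive and Tshz2-low cells given equal weight, Syt7 was at -0.55 and Itpka at -0.49, both inside 1.5-fold. The ratio of mt-Nd4l was -1.17 in all other barcodes too, so this gene was lower across the whole GlaKO library.

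Over all members the same rule named further genes. Higher in GlaKO were Pcbp1 (1.33), Dpy19l1 (1.17), the adhesion gene Alcam (1.15) and Aldoc (1.14). Lower were Gm10076 (-1.29), Ano3 (-1.23), the reelin receptor gene Vldlr (-1.08), Rnf112 (-1.05), Nos1ap (-1.04) and Gria1 (-1.04). Gria1 was 477 CPM (395 to 571) in wt members and 232 CPM (196 to 274) in GlaKO members. Within the Tshz2-low class its summed levels were 613 and 611 CPM, with their spread over cells given above. In Tshz2-positive cells its levels were 17.5 and 99.0 CPM, higher in GlaKO. The part of the class makeup in the ratio over all members was not tested. Gm10076 was lower in other barcodes too, by -1.83.

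Synaptic gene lists moved little in the pyramidal-like class. For this and the following lists, counts past 1.5-fold are to be read against 7.64% of all genes higher and 4.51% lower. These shares are no measure for counts above 0, whose share over all genes is not given here. Leaving out Snap25 and Syt1, which the member rule used, 11 of 14 measured presynaptic release genes had ratios above 0 and the median was 0.22, beside 0.04 over all genes. Cplx2 was past 1.5-fold at 0.60 and at 0.58 or below under 4 alternatives. Of 7 measured ionotropic glutamate receptor genes none was past 1.5-fold, 1 was above 0 and the median was -0.30. The 6 GABA-A receptor and GABA handling genes had a median of -0.12 and none past 1.5-fold. The 7 neurexin and partner genes had a median of 0.01, with Nrxn3 past 1.5-fold at 0.79, and at 0.47 with Tshz2-positive and Tshz2-low cells given equal weight.

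Of the 4 measured IgLON adhesion genes, 1 was higher and 1 lower. Ntm, encoding neurotrimin, was 469 CPM (377 to 578) in wt and 721 CPM (649 to 798) in GlaKO, a log2 ratio of 0.62. In all other barcodes it was 57.6 and 170 CPM, with a larger ratio of 1.56. Opcml, encoding the opioid binding cell adhesion protein, was 738 CPM (621 to 871) and 443 CPM (387 to 504), a ratio of -0.74. It was in all 31 wt cells and in 59 of 75 GlaKO cells.

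Ion channel lists went in both directions, beside 7.64% of all genes higher and 4.51% lower past 1.5-fold. Among 9 potassium channel genes, 2 were higher past 1.5-fold, Kcnc1 (0.85) and Kcnip4 (0.80), and 2 were lower, with Kcnd2 among them (-0.67, and -0.21 with every cell given equal weight), and the median was 0.31. Kcnc1, a fast-gating potassium channel gene, was 137 CPM (89.6 to 201) and 247 CPM (206 to 294). Among 10 sodium and calcium channel genes, none was higher past 1.5-fold, Cacna1e (-0.77) and Cacna2d1 (-0.59) were lower, and the median was -0.21. Cacna2d1 stood at the limit and was at -0.33 under the stricter removal of granule-like cells. Cacna1e, a calcium channel pore subunit gene, was 390 CPM (306 to 490) and 229 CPM (190 to 275).

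Immediate-early genes, which are induced by neuronal activity and by dissociation, had a median ratio of -0.31 over 8 measured genes, beside 0.93 for the same genes in other barcodes. Fos, Junb and Jun were past 1.5-fold lower in GlaKO, at -1.04, -0.78 and -0.68, beside 4.51% of all genes. The Fos and Jun values rested on 1 wt cell, which held 43 of the Fos and 60 of the Jun UMIs. This was the wt member with at least 20 UMIs of glial, vascular and immune markers, of which GlaKO had 3. Without these members the ratio of Fos was -0.07, that of Junb -0.37 and that of Jun 0.94.

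Of lipid and stress genes few were measured. Among 14 genes of glycosphingolipid breakdown, the pathway that contains Gla, only Psap passed the count filter. Psap, the saposin precursor, was 1134 CPM (988 to 1296) in wt and 1032 CPM (946 to 1123) in GlaKO, a log2 ratio of -0.14. Of 12 synthesis genes 2 were measured, and the sialyltransferase gene St8sia3 was 121 CPM (76.9 to 182) and 190 CPM (155 to 232), a ratio of 0.65. The 6 measured cholesterol genes had a median of -0.16 and none past 1.5-fold. Among 9 heat shock genes Hsph1 was higher at 0.65, and at 0.42 with every cell given equal weight, and the median was 0.08.

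The 9 oligodendrocyte markers summed to 283 CPM in wt members and 770 CPM in GlaKO members, against 9313 and 17428 CPM in other barcodes, with 2 of the 9 at 0 in wt and none in GlaKO. Their part in the ratios of the pyramidal-like class was not tested.

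Markers of other cell types were low in the members. The 9 microglial genes summed to 1063 CPM in wt and 751 CPM in GlaKO, with a median per cell of 0.5 and 1 UMI and highest cells of 224 and 209 UMIs. The 8 astrocyte genes summed to 477 and 522 CPM, with 3 and 2 of them at 0, and the 7 listed choroid plexus genes to 198 and 107 CPM. Haemoglobin genes summed to 12.1 CPM in wt members and 106 CPM in GlaKO members, beside 33.0 and 822 CPM in other barcodes. Their part in the ratios above was not tested.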

How the data were processed

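Single-cell UMI counts were deposited by the authors as 1 filtered matrix per library, with raw whole-number counts per gene and barcode. Per the submitters' processing notes, the build was mm10 and the tools included Seurat 4 under R 4.1.3 and Cell Ranger 6.0.1. Per the file headers, 13008 genes are listed for wt and 13154 for GlaKO, 12744 of them for both, so a gene kept for 1 library has no value in the other. Coordinates come from the GRCm38 annotation.

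Members and gene lists were chosen with earlier results of these data known, and class limits were set after the values were seen. Counts were summed over cells of a class, divided by that class's total UMIs and scaled to CPM (per 1000000). Log2 ratios are GlaKO over wt, with a level at 0 replaced by 3 counts. Genes named from all genes were the 10 highest and 10 lowest ratios with UMIs in at least 10 cells of the higher library and no cell holding over 20% of its UMIs. Genes of the marker lists and Gla were named beside them, and some genes that the rule names are not reported here. The ratio step was tested on simulated data. Doublets were left in, and 1 alternative removed the top 4% of Scrublet scores. Other alternatives changed the member rule, the scaling, the weight of cells, the depth and the filters. The total was 31929688 UMIs in wt and 29914106 in GlaKO. Analyses used Python 3.11.15, numpy 2.4.6, scipy 1.17.1, pandas 2.3.3 and scanpy 1.11.5. Figures were drawn with matplotlib 3.10.9.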

Additional observations from a re-analysis of the deposited data

How the results depend on the processing

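No paired analysis was possible because each genotype had 1 library and the labels carry no replicate numbers. The 46 wt members give wide intervals. Thinned to 2000 UMIs per cell, the share of pyramidal-like cells was 45.2% in wt and 66.7% in GlaKO. The share of Tshz2-positive cells among GlaKO pyramidal-like cells was then 63.3%, and the share with at least 2 Id2 UMIs 0% of 7 wt and 34.2% of 38 GlaKO cells. Without members holding 3 or more UMIs of Prox1, Dsp and C1ql3 the wt pyramidal-like share was 84.0%. The other 76 recomputed shares moved by less than their intervals. Inhibitory-like shares ranged from 6.25% to 12% in wt and from 5.75% to 13.0% in GlaKO.

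Counts of genes past 1.5-fold varied with the number of genes tested. Among members, 374 were higher and 282 lower at a minimum of 50 UMIs, 21 and 9 at a minimum of 300, and 35 and 21 after thinning. Without members holding 3 or more UMIs of Prox1, Dsp and C1ql3, which left 786 genes, 56 were higher. With equal weight for every cell 125 were lower, and without each gene's own top cell 45 were lower. In the pyramidal-like class these counts were 369 and 245, 16 and 7, and 22 and 13. There 62 were higher under the same limit on Prox1, Dsp and C1ql3, which left 650 genes. Without each gene's top cell 34 were lower. TMM scaling moved the median ratio from 0.04 to 0.10 in that class.

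Of single genes, 643 recomputed ratios stayed within their intervals and 40 moved further. Of 687 ratios 8 had the opposite sign, 4 of them for Jun, which was past 1.5-fold. The others were Cck and Snap25, both inside 1.5-fold. Under the limit on Prox1, Dsp and C1ql3, Cck was at -0.16 among members and -0.09 in pyramidal-like cells. Snap25 in pyramidal-like cells was at -0.01 under that limit and at -0.0014 after thinning. Jun in pyramidal-like cells had ratios of 0.0437 with equal weight for every cell, 0.94 without its top cells, 0.94 without members rich in other markers and 1.00 without the top Scrublet scores, since 1 wt cell held 60 of its UMIs. Fos was at -0.00056 without its top cells. The equal weight of Tshz2-positive and Tshz2-low cells, the other Tshz2 limits, the omission of Snap25 and Syt1 from a list, that of 1 cell for Crym and the member set without the C1ql2 limit were chosen after seeing the data. With Tshz2 limits of 1 and 4 UMIs the Tshz2-positive share of pyramidal-like cells was 61.3% and 48.4% in wt and 85.3% and 68.0% in GlaKO.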

Other observations

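The C1ql2 limit removed more barcodes than it kept. Of barcodes that met every other criterion, 250 in wt and 262 in GlaKO were set aside for C1ql2 alone, and 222 and 240 of these were granule-like by the other markers. Pyramidal-like were 7 and 8 of them, inhibitory-like 2 and 5, and without a class 19 and 9. A single C1ql2 UMI was the reason for 23 and 15. C1ql2 was also found in 2.47% of wt and 3.61% of GlaKO barcodes without Snap25 and Syt1 UMIs. With these pyramidal-like and inhibitory-like barcodes added to the members, pyramidal-like cells were 69.1% of 55 cells in wt and 77.6% of 107 in GlaKO, and inhibitory-like cells 9.09% and 11.2%.

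Tshz2 was not confined to these neurons. At least 2 Tshz2 UMIs were found in 51 wt and 84 GlaKO barcodes that were not members. Of these, 24 in wt and 61 in GlaKO held at least 4 UMIs of the oligodendrocyte precursor genes Pdgfra, Cspg4, Lhfpl3 and C1ql1, and 11 and 7 held at least 8 UMIs of the choroid plexus genes. Per barcode their counts were lower than in the neurons, with 122 UMIs in 51 wt and 248 in 84 GlaKO barcodes, against 119 UMIs in the 17 wt and 520 in the 58 GlaKO Tshz2-positive members.

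The granule-like members without C1ql2 differed from the pyramidal-like members in many genes, as a description with libraries summed. Highest were Pcp4, a calmodulin-binding peptide gene (a log2 ratio of 3.76), Ahcyl2 (3.50), Dgkh (3.41) and Erc2 (3.17). Lowest were Dkk3, a secreted Wnt pathway modulator gene (-6.40), the growth cone gene Gap43 (-4.87) and the vesicle glycoprotein gene Sv2b (-4.62). Dkk3 stood at 644 CPM (534 to 768) in wt and 896 CPM (816 to 981) in GlaKO pyramidal-like cells. In granule-like cells it was at 0 in wt (at most 88.7) and at 16.6 CPM (0.421 to 92.6) in GlaKO.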
